A study of Canis lupus familiaris with 13 samples.

Results

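The genes described here take part in cyclic dinucleotide sensing and its control. They are the DNA sensor CGAS, the adaptor STING1 that binds the cyclic dinucleotide, and its kinases TBK1 and IKBKE. TREX1 and SAMHD1, which limit nucleic acid, the cGAMP hydrolase ENPP1, and the carrier and channel genes SLC19A1, LRRC8A and LRRC8C complete the list. They were chosen by symbol for these roles, and all 10 were found among the 43427 genes of the count table. RNA had been sequenced from 13 biopsies of 4 naturally occurring tumors in 3 companion dogs that received IMAX, a nanoparticle made of a lithocholic acid-conjugated polyethyleneimine (2E′) that carried paclitaxel and a cyclic dinucleotide agonist of STING, injected into the tumor. Dog RV, a spayed mixed-breed female, had a soft tissue sarcoma, sampled in the middle of the mass before treatment (day 0) and 2 days after a second dose, and then 2 weeks after a further dose, both at the injection site and adjacent to it. Dog CL, an intact female Shih Tzu, had a cranial and a caudal mammary tumor, each sampled on day 0 and at 1 week and 1 month after a second dose. Dog BM, a spayed female Great Pyrenees, had a tumor in the middle of a left mammary gland, sampled on day 0 and at 1 week and 3 weeks after a second dose.

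The libraries formed 3 time groups, before (n = 4), early (2 days in RV, 1 week in the mammary tumors, n = 4) and late (2 weeks, 3 weeks or 1 month, n = 5). No dog went without IMAX, so the pretreatment biopsy of each tumor was the only baseline, and time after dose, number of doses, sampling by biopsy or at surgery and the dog itself differ together. The cranial and caudal tumors share 1 host, and each tumor and time point is a single piece of tissue apart from the late RV sites. P-values therefore measure the spread between these biopsies and not that between treated dogs.

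In the cytosol, CGAS binds double-stranded DNA and makes the cyclic dinucleotide cGAMP, which binds STING1 on the endoplasmic reticulum. STING1 then moves to the Golgi and recruits the kinases TBK1 and IKBKE, which activate the transcription factors IRF3 and NF-kB and so type I interferon genes. TREX1 and SAMHD1 limit the nucleic acid that can start the pathway, ENPP1 hydrolyses cGAMP outside the cell, and SLC19A1 and the LRRC8 channels let cyclic dinucleotides cross the plasma membrane.

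The libraries held 11622444 to 29931125 counts, the 3 time groups overlapped in depth, and all 10 genes passed the filter on low counts, with a lowest count of 9. Levels are given as CPM, that is, counts scaled to a common library total and corrected by TMM factors. The early libraries differed from the others in more than these genes. Ribosomal protein genes, 74 in number, took 3.16% to 6.93% of counts early against 5.28% to 16.5% before and 7.17% to 13.1% late. Within a tumor the share was higher early than before in BM (6.93% against 5.28%) and lower in the other tumors. The summed level of 8 macrophage markers was higher early than before in 4 of 4 tumors, with ranges of 197.6 to 458.4 CPM before, 830.7 to 2467 CPM early and 240.1 to 1043 CPM late. None of the 8 was at 0 in any library, and 5 of 8 were higher early in 4 of 4 tumors. T cell markers (5 genes) summed to 11.9 to 30.6 CPM before, 25.2 to 166.5 CPM early and 30.7 to 88.9 CPM late. Their sum was higher early than before in 4 of 4 tumors, as were 3 of the 5 markers. In CL caudal the sum was higher late (70.7 CPM) than early (25.2 CPM), and in the other tumors it was lower late. The RV library at 2 days stood apart in its neutrophil markers (5 genes, 6595 CPM against 40.1 CPM before). Epidermal markers (KRT1, KRT10, KRT5, KRT14 and DSG1) summed to 1422 to 2227 CPM early and 63.3 to 3469 CPM before. The sum was higher early in 3 of 4 tumors, but none of the 5 markers was higher in 4 of 4. In BM at 1 week 2 of the 5 were at 0, so there the sum rests on the remaining ones. In RV the epidermal sum went from 63.3 CPM before to 2227 CPM at 2 days, and fibroblast and stroma markers (5 genes) from 19820 to 2074 CPM. The paper's diagnosis of the RV biopsy at 2 days was granulomatous to pyogranulomatous dermatitis, without definite tumor cells in the sections examined. The part of tissue content in the RV differences was not tested. The 5 mammary epithelial markers summed to 153.7 to 4532 CPM in mammary tumors and 24.9 to 104.5 CPM in RV. In bulk tissue, fewer cells of a type and less RNA per cell cannot be told apart.

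The question put to these genes was whether they differed between the pretreatment biopsy and the early and late biopsies of the same tumor. CGAS, STING1 and TREX1 were higher early than before in 4 of 4 tumors, and ENPP1 was lower in 4 of 4. Among all 20118 genes tested, 10.8% were higher in 4 of 4 tumors and 7.9% lower in 4 of 4. With edgeR's quasi-likelihood test and Benjamini-Hochberg adjustment over all genes, none of the 10 passed the threshold of 0.05, and 0.00497% of all genes did (1 gene). In simulated data with this spread, the test recovered 2 of 100 genes changed 4-fold, so a missing call does not mean no change. At an unadjusted p under 0.05, 4 of the 10 were higher (CGAS, STING1, IKBKE and TREX1) and none lower, beside 7.7% of all genes that were higher and 3.16% that were lower at that level. DESeq2's Wald test, run on the same counts, called 2 of the 10 after adjustment, CGAS and STING1, where it called 5.05% of the 18947 genes to which it gave an adjusted p.

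**Figure D1:**
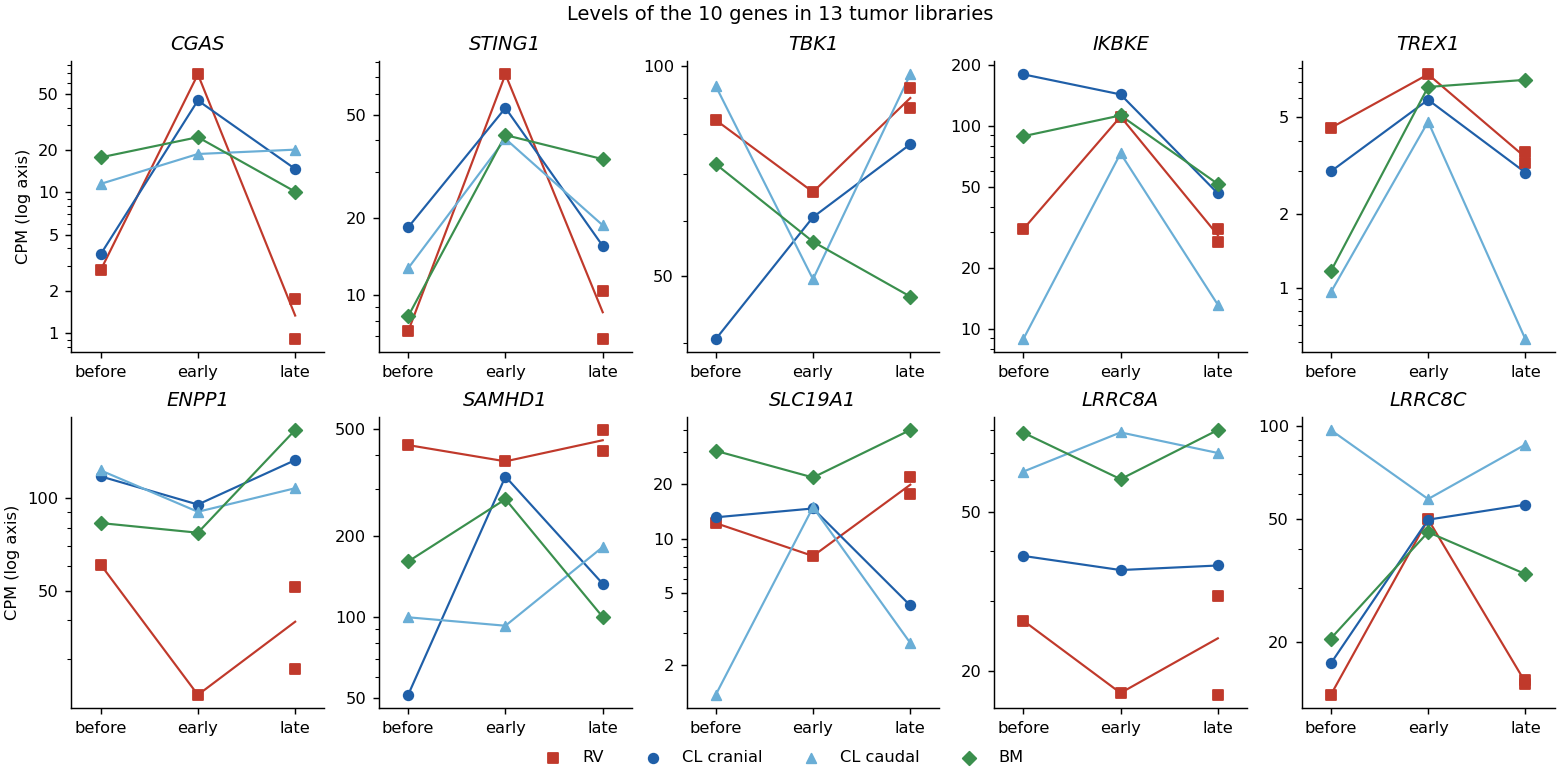
Levels of the 10 genes in each library, in CPM on a log axis that differs between panels, at the 3 time groups on the x axis. Symbols are single libraries, colored by tumor, lines join the libraries of a tumor and run to the mean of both late RV sites; STING1 is the gene whose 4 early libraries (40.4 to 71.7 CPM) all lie above every other library.

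The adaptor STING1 (chr2:33908726-33916993, canFam4) separated the early libraries from all others. Before treatment it was at 7.26 CPM in RV, 18.4 and 12.7 CPM in the cranial and caudal tumors of CL, and 8.31 CPM in BM. Early it was at 71.7 CPM in RV, 53.2 and 40.4 CPM in the cranial and caudal tumors of CL, and 41.8 CPM in BM. Late it was at 10.4 CPM at the RV injection site, 6.77 CPM adjacent to it, 15.6 CPM in CL cranial, 18.7 CPM in CL caudal and 33.7 CPM in BM. No early library overlapped with the 9 others, a pattern held by 0.915% of all genes (184 genes) and by STING1 as the 1 gene of the 10. The group means were 51.8 ± 14.5 CPM early (SD, n = 4), 17.0 ± 10.4 late (n = 5) and 11.7 ± 5.05 before (n = 4), and the late and before libraries overlapped. Within a tumor, the early level exceeded the pretreatment level by 1.53 in CL cranial, 1.66 in CL caudal, 2.32 in BM and 3.29 in RV on the log2 scale. The fitted log2 fold change was 2.26 with a 95% interval of 1.12 to 3.41 (edgeR Benjamini-Hochberg adjusted p = 0.157, DESeq2 adjusted p = 0.00189). It was 1.785 without RV, with an edgeR adjusted p of 0.585.

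Macrophage markers, like STING1, were higher early than before in 4 of 4 tumors. From before to early the summed macrophage markers went from 197.6 to 2467 CPM in BM, from 421.3 to 1687 CPM in CL cranial, from 458.4 to 830.7 CPM in CL caudal and from 261.1 to 1061 CPM in RV. The tumor with the largest early STING1 level, RV, was behind CL cranial and BM in macrophage markers early. BM at 3 weeks held both the highest late STING1 level (33.7 CPM) and the highest late macrophage sum (1043 CPM), whereas both late RV sites were the lowest in STING1 and in macrophage markers (258.8 and 240.1 CPM) among late libraries. CL cranial at 1 month differed, with STING1 below its pretreatment level (15.6 against 18.4 CPM) and macrophage markers above theirs (609.3 against 421.3 CPM). How much of the STING1 difference came with the macrophage difference was not tested.

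**Figure D2:**
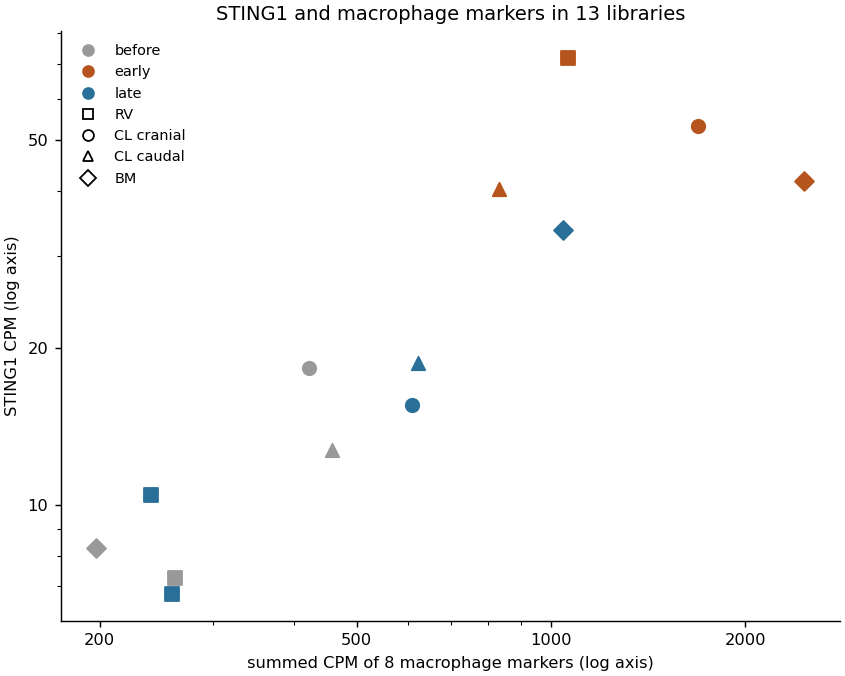
STING1 level (y axis, CPM, log scale) against the summed level of 8 macrophage markers (x axis, CPM, log scale) in 13 libraries, with color for time group and symbol for tumor. The 4 early libraries lie at the upper right, and the BM library at 3 weeks (33.7 CPM STING1, 1043 CPM markers) is the late library nearest to them.

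The sensor CGAS (chr12:35751269-35770689) was higher early in every tumor, but by unequal amounts. Its levels before treatment were 2.80 CPM in RV, 3.63 and 11.5 CPM in the cranial and caudal tumors of CL, and 17.7 CPM in BM. Early they were 68.9 CPM, 45.0 CPM, 18.7 CPM and 24.7 CPM in the same order. Late they were 1.76 and 0.907 CPM at the RV sites, 14.7 CPM in CL cranial, 20.1 CPM in CL caudal and 10.1 CPM in BM. The early libraries all lay above the pretreatment ones, which held for CGAS, STING1 and TREX1 among the 10 and for 2.71% of all genes. For CGAS the margin was narrow, with 18.7 CPM in CL caudal early against 17.7 CPM in BM before. Their exact Poisson 95% intervals for counting error overlapped (17.1 to 20.5 CPM and 16.4 to 19.1 CPM). The late CL caudal library exceeded its own early library. Within a tumor the early difference was 4.58 in RV and 3.60 in CL cranial on the log2 scale, but 0.70 in CL caudal and 0.48 in BM, the 2 tumors with the highest pretreatment level. Each difference contains the pretreatment level of a single library, so a high start by itself makes it smaller. Group means were 39.3 ± 22.7 CPM early, 9.52 ± 8.27 late and 8.91 ± 7.06 before (SD), so late and before did not differ beyond their spread. The fitted log2 fold change early against before was 2.79 with a 95% interval of 0.59 to 4.99 (edgeR adjusted p = 0.361, DESeq2 adjusted p = 0.0292).

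Leaving out RV brought the fitted CGAS value to 1.48, and leaving out BM brought it to 3.46. In the 3 mammary tumors alone, CGAS, STING1 and TREX1 were again higher early in 3 of 3, beside 15.6% of all genes. STING1 was also the 1 gene of the 10 whose early mammary libraries all lay above every other mammary library, beside 1.59% of all genes. Its separation over all 13 libraries had fixed this too.

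**Figure D3:**
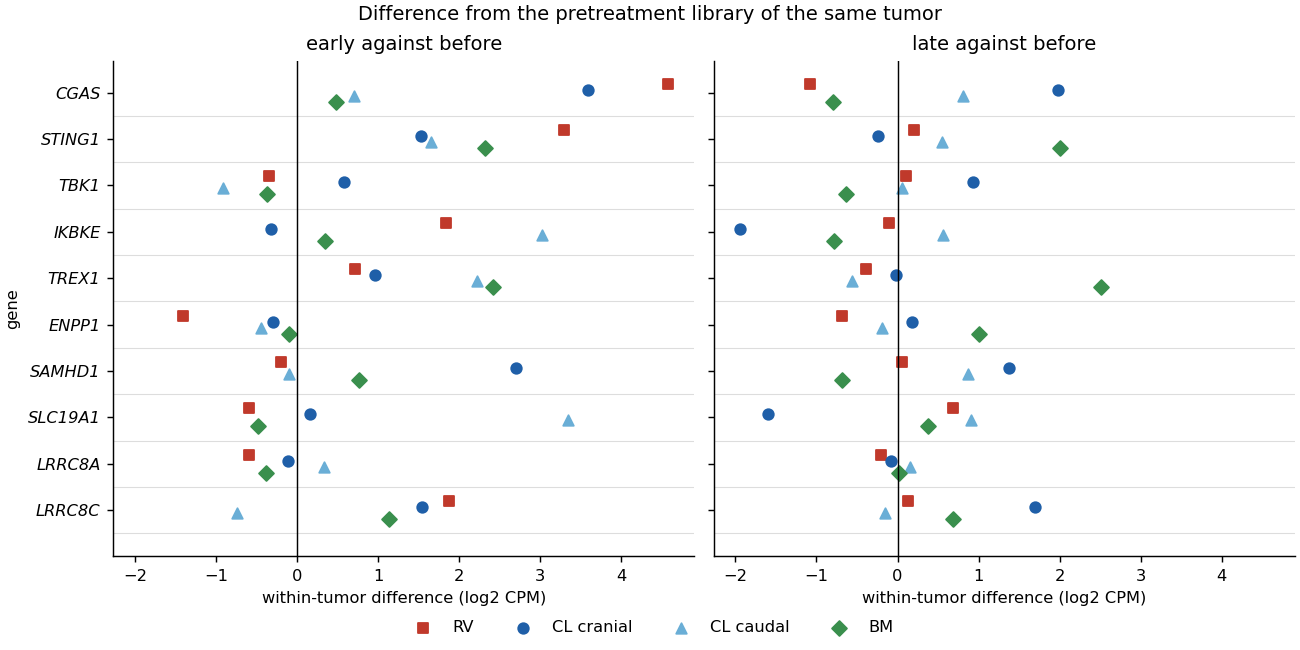
Difference of each gene from the pretreatment library of the same tumor (x axis, log2 CPM), early on the left and late on the right, with 1 symbol per tumor and the late RV sites averaged. Early symbols of CGAS, STING1 and TREX1 lie right of 0 in 4 of 4 tumors and those of ENPP1 left of 0, while late no gene has its 4 symbols on 1 side.

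The kinases TBK1 and IKBKE, which phosphorylate STING1 and IRF3, showed different patterns. TBK1 (chr10:7526057-7567705) had early levels of 66.0 CPM in RV, 60.7 and 49.4 CPM in the cranial and caudal tumors of CL, and 56.0 CPM in BM. These lay inside the pretreatment range of 40.5 CPM (CL cranial) to 93.7 CPM (CL caudal), and TBK1 was higher early in 1 of 4 tumors, CL cranial. Its log2 fold change was -0.28 with a 95% interval of -1.0 to 0.45. The early libraries differed less among themselves (SD 7.03 CPM around 58.0) than the pretreatment ones did (SD 23.1 around 72.6).

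IKBKE (chr38:3331693-3356866), the kinase related to TBK1 that cytokines can induce, started from very different levels. Before treatment it was at 31.0 CPM in RV, 179 and 8.91 CPM in the cranial and caudal tumors of CL, and 88.9 CPM in BM. Early it was at 111.0 CPM, 143 CPM, 73.2 CPM and 112 CPM in the same order, higher in 3 of 4 tumors and lower in CL cranial. Late it was at 26.8 and 31.1 CPM in RV, 46.5 and 13.2 CPM in the cranial and caudal tumors of CL, and 51.7 CPM in BM. The early libraries overlapped with the pretreatment ones, but the lowest early library lay above the highest late one, as for STING1 among the 10 and for 4.49% of all genes. The log2 fold change early against before was 1.14 (95% interval 0.03 to 2.25, edgeR adjusted p = 0.452), and it was 0.54 without CL caudal, 1.73 without CL cranial and 0.51 in a fit without the tumor term.

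TREX1 (chr20:41032948-41034957), the exonuclease that degrades cytosolic DNA, had few reads but was higher early in every tumor. It was at 4.53 CPM before and 7.52 CPM early in RV, 3.001 and 5.91 CPM in CL cranial, 0.957 and 4.81 CPM in CL caudal, and 1.17 and 6.67 CPM in BM. In CL caudal this rested on 16 counts before and 118 early, with exact Poisson 95% intervals of 0.547 to 1.55 CPM and 3.98 to 5.76 CPM that cover counting error only. Late, TREX1 was at 3.60 and 3.27 CPM in RV, 2.97 CPM in CL cranial and 0.614 CPM in CL caudal, but at 7.14 CPM in BM, beside 6.67 CPM early. The early and pretreatment values did not overlap (4.81 to 7.52 CPM against 0.957 to 4.53 CPM), but the margin was narrow. The nearest libraries were CL caudal early and RV before, the latter with 68 counts. Their Poisson intervals overlapped (3.98 to 5.76 CPM and 3.52 to 5.74 CPM). The log2 fold change was 1.545 (95% interval 0.08 to 3.01, edgeR adjusted p = 0.447).

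The annotated ends of TREX1 and ATRIP, the partner of the checkpoint kinase ATR, overlap by 22 bases, and how reads of overlapping genes were counted is not given in the sources used here. ATRIP went from 4.19 to 14.5 and back to 4.37 CPM in CL caudal, and from 9.94 to 12.1 and 16.8 CPM in BM, the directions that TREX1 took in these tumors. From before to early it went from 11.99 to 6.46 CPM in RV and from 14.2 to 10.5 CPM in CL cranial, where TREX1 was higher. The share of reads that could belong to both was not tested.

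SAMHD1 (chr24:26189021-26245159), the dNTP hydrolase that limits cDNA synthesis, was highest in RV at every time. In RV it was at 435.7 CPM before, 379.1 CPM early and 495.8 and 412.5 CPM late, above every mammary library (51.3 to 332.8 CPM). In CL cranial it went from 51.3 CPM before to 332.8 CPM early and 132.9 CPM late, and in BM from 160.8 to 274.1 and then 100 CPM. CL caudal gave 99.7, 92.8 and 182.0 CPM at the same points, so the early level was higher in 2 of 4 tumors. The log2 fold change was 0.83 (95% interval -0.31 to 1.97, edgeR adjusted p = 0.551), and 0.21 without CL cranial.

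ENPP1 (chr1:209085-282880), the ectoenzyme that hydrolyses extracellular cGAMP, was lower early than before in 4 of 4 tumors and lower early than late in 4 of 4. Its levels before and early were 60.8 and 22.9 CPM in RV, 117.6 and 95.2 CPM in CL cranial, 123.0 and 90.2 CPM in CL caudal, and 82.9 and 77.1 CPM in BM. Late it was at 27.7 and 51.5 CPM in RV, 132.8 and 107.6 CPM in the cranial and caudal tumors of CL, and 166.4 CPM in BM. Every group overlapped with the others, and RV was lowest at each time. Within a tumor the early difference ranged from -0.10 in BM to -1.40 in RV on the log2 scale, and the fitted log2 fold change was -0.60 (95% interval -1.38 to 0.18, edgeR adjusted p = 0.540), or -0.30 without RV.

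The carrier SLC19A1 (chr31:38937728-38958024), the reduced folate carrier that also imports cyclic dinucleotides, had no common direction. CL caudal went from 1.38 CPM before to 14.9 CPM early and 2.66 CPM late, whereas CL cranial stayed near its pretreatment level early (13.1 and 14.7 CPM) and was at 4.28 CPM late. BM gave 30.5, 21.8 and 39.8 CPM, and RV gave 12.2 CPM before, 8.03 CPM early and 21.98 and 17.7 CPM late. The early level was higher in 2 of 4 tumors, and the fitted log2 fold change of 0.74 (95% interval -0.92 to 2.40) became -0.24 without CL caudal.

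The volume-regulated anion channel needs LRRC8A, and the subunit that joins it, such as LRRC8C, sets which solutes pass. LRRC8A (chr9:54820897-54848149) had the narrowest range of early differences within a tumor among the 10, between -0.60 in RV and 0.33 in CL caudal on the log2 scale. Its group means of 51.8 ± 23.5 CPM before, 48.2 ± 27.0 early and 47.0 ± 26.8 late (SD) lay within their spread, and the log2 fold change early against before was -0.19 with a 95% interval of -0.86 to 0.48. RV held less of it (17.4 to 30.8 CPM) than any mammary library (35.8 to 80.1 CPM).

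LRRC8C (chr6:59414770-59499275) was higher early in 3 of 4 tumors, by 1.87 in RV, 1.54 in CL cranial and 1.14 in BM on the log2 scale, with a difference of -0.74 in CL caudal. Its levels before were 13.5 CPM in RV, 17.1 and 96.7 CPM in the cranial and caudal tumors of CL, and 20.6 CPM in BM, and early they were 49.8, 49.7, 57.9 and 45.3 CPM. The early libraries lay close together (50.7 ± 5.27 CPM, SD). The larger pretreatment spread (37.0 ± 39.9 CPM) came from the single CL caudal library, as the others lay between 13.5 and 20.6 CPM. The log2 fold change was 1.02 (95% interval -0.03 to 2.07, edgeR adjusted p = 0.470), and it was 0.61 without RV, 1.53 without CL caudal and 0.46 in a fit without the tumor term.

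Over the 10 genes, 7 had a positive fitted log2 fold change early against before with a median of 0.92, beside a median of 0.25 and 60.3% positive over all genes. Late against before, 8 were positive with a median of 0.16, beside -0.05 and 46.9% over all genes, and early against late 7 were positive with a median of 0.54, beside 0.35 and 61.2%. The plot of fitted changes gives every estimate with its interval.

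**Figure D4:**
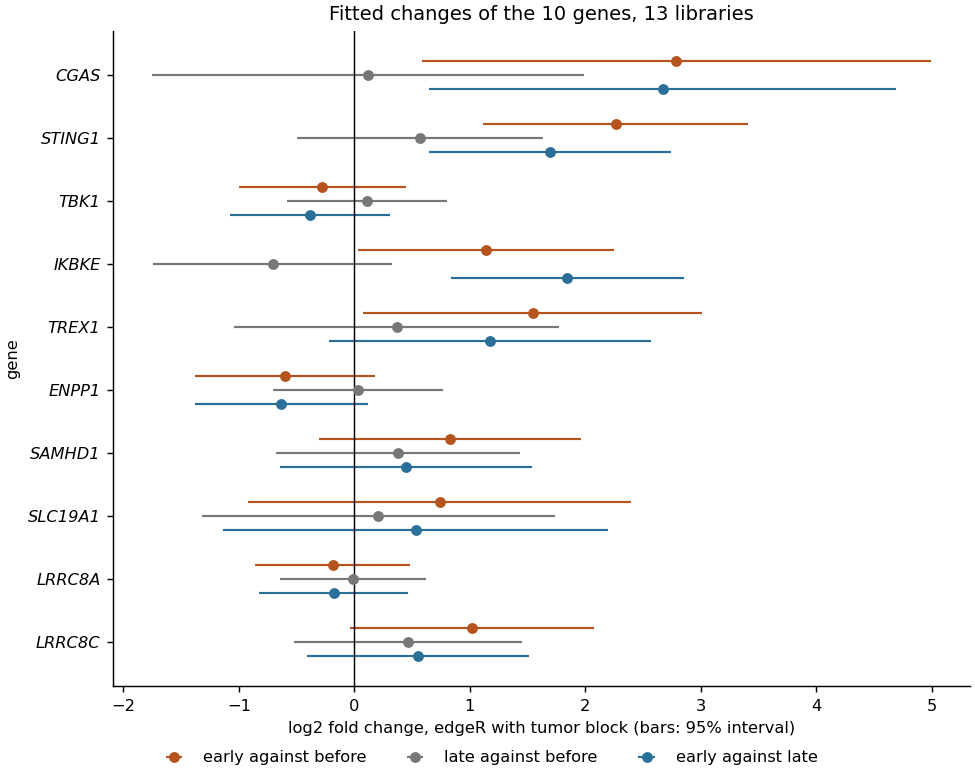
Fitted log2 fold changes of the 10 genes (x axis) with 95% intervals as bars, from edgeR with a tumor term over 13 libraries, for early against before, late against before and early against late. Intervals for early against before lie above 0 for CGAS, STING1, IKBKE and TREX1 before any adjustment over genes, and every interval for late against before covers 0.

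Late against before, none of the 10 was higher in 4 of 4 tumors (7.13% of all genes were) and none lower in 4 of 4 (8.04% were). None passed edgeR's adjusted threshold, as for 0% of all genes, and none had an unadjusted p under 0.05, beside 1.28% of all genes higher and 2.72% lower at that level. DESeq2 called none of the 10 and 0.0348% of all genes with an adjusted p (7 genes). The log2 fold changes ran from -0.71 for IKBKE to 0.57 for STING1, whose 95% interval was -0.49 to 1.63. STING1 was higher late than before in 3 of 4 tumors, by 2.01 in BM, 0.55 in CL caudal and 0.21 in RV on the log2 scale, and its fitted value was 0.10 without BM. TREX1 in BM likewise was 2.52 above its pretreatment level late, while it was lower in the other 3 tumors. From before to late in BM, fibroblast and stroma markers went from 1140 to 100100 CPM and mammary epithelial markers from 2977 to 153.7 CPM. The paper's diagnosis of this BM mass at 3 weeks included carcinosarcoma and features of osteosarcoma beside carcinoma. Which cells held these markers, and the part of tissue content in the late BM levels, was not tested. CGAS was below its pretreatment level late in RV (-1.08) and BM (-0.80) and above it in both CL tumors.

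Early against late, which uses the same early libraries as the first comparison, STING1 and IKBKE were higher in 4 of 4 tumors, beside 17.4% of all genes, and ENPP1 was lower in 4 of 4, beside 13% of all genes. IKBKE had a log2 fold change of 1.845 (SE 0.46, edgeR adjusted p = 0.0637), with tumor values from 1.12 in BM to 2.47 in CL caudal. STING1 had 1.69 (SE 0.48, edgeR adjusted p = 0.0734), with tumor values from 0.31 in BM to 3.08 in RV. CGAS had 2.67 (SE 0.93, edgeR adjusted p = 0.107) and was higher in 3 of 4 tumors, the largest by 5.66 in RV and the exception CL caudal at -0.10. Without RV the fitted values of STING1 and CGAS were 0.98 and 0.99.

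None of the 10 passed edgeR's adjusted threshold early against late, as 0.00994% of all genes did (2 genes), and 3 of the 10 were higher at an unadjusted p under 0.05 (CGAS, STING1 and IKBKE) and none lower, beside 17.7% and 8.87% of all genes. DESeq2 called CGAS, STING1 and IKBKE, beside 23.9% of all genes with an adjusted p (4809 genes). IKBKE also passed in edgeR when the filter on low counts was left out (edgeR adjusted p = 0.046), a fit that called 1081 genes in all.

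The cranial and caudal tumors of dog CL gave unlike starting points in the same host. On day 0, IKBKE was 20.1-fold and SLC19A1 9.53-fold higher in the cranial tumor, while LRRC8C was 5.66-fold and CGAS 3.16-fold higher in the caudal one. At 1 week the gap was 1.95-fold for IKBKE and 1.17-fold for LRRC8C, both in the same direction as on day 0, and the cranial to caudal ratio of SLC19A1 was 0.985. CGAS was then 2.4-fold higher in the cranial tumor, the opposite of day 0. SAMHD1 was 3.59-fold higher in the cranial tumor at 1 week. Each of these ratios compares single libraries and has no replicate check. The genes named for day 0 had the largest ratios then, so smaller gaps at 1 week can follow from that choice. Marker sums differed between these tumors too. On day 0 the cranial and caudal tumors held 4532 and 281.4 CPM of mammary epithelial markers, 13340 and 1976 CPM of fibroblast and stroma markers (5 genes), and 33.8 and 2109 CPM of neutrophil markers. At 1 week the same sums were 2531 and 649.8 CPM, 7512 and 1438 CPM, and 455.3 and 107.1 CPM. Their part in the ratios was not tested.

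Across the 13 libraries, which share tumors and therefore are not independent, the genes most like each of 3 members in log2 CPM were found by Pearson's r. The genes nearest to STING1 were LCP1, an actin-bundling protein (r = 0.958, Spearman's rho = 0.962), SIGLEC1, a sialic acid-binding receptor (0.943 and 0.912), and FERMT3, an integrin activator (0.943 and 0.901), followed by PILRA (0.940 and 0.951) and VAV1 (0.938 and 0.956). LCP1 averaged 111.4 CPM before, 534.9 CPM early and 183.7 CPM late. CGAS was nearest to CMPK2, a mitochondrial nucleotide kinase (r = 0.981, rho = 0.984), IFI44L (0.960 and 0.973) and HERC5, the ligase for ISG15 (0.958 and 0.973), and CMPK2 averaged 31.4 CPM before, 134.6 CPM early and 30.9 CPM late. TREX1 was nearest to RNASEK (r = 0.935, rho = 0.929), CYP46A1 and RAB42 (0.929 and 0.934 for both). Among the members themselves, CGAS and STING1 had r = 0.778 and TBK1 and IKBKE r = -0.782. Pairs without such a shared step came near these values: ENPP1 and LRRC8A (0.777), ENPP1 and SAMHD1 (-0.754), and CGAS and LRRC8C (0.738).

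Other genes of the pathway were read from 4 lists written by role. Of 9 genes for adaptors of the kinases and their transcription factors, 7 were higher early than before with a median log2 fold change of 0.57. Of 12 genes that hold, move or modify STING1, 10 were higher with a median of 0.44. Of 10 nucleases and regulators of CGAS, 4 were higher (median -0.15), and of 9 measured carriers and hydrolases, 7 were higher (median 0.93). LRRC8D, a further channel subunit on the last list, was not analysed here. Each list median stands beside the 0.25 of all genes. None of these genes passed edgeR's adjusted threshold in any of the 3 comparisons, and 1, 1, 3 and 3 of the lists in this order were higher early than before at an unadjusted p under 0.05, beside 7.7% of all genes. DESeq2 called 3 of them early against before, TRIM14, ADAR and SMPDL3A, beside 5.05% of all genes.

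SMPDL3A, a phosphodiesterase that can degrade cGAMP, had the largest value of the 4 lists, with 56.0 CPM before, 681.4 CPM early and 114.1 CPM late on average. Its log2 fold change early against before was 3.26 (SE 0.76, edgeR adjusted p = 0.161), higher in 4 of 4 tumors. In the same list P2RX7, an ATP-gated channel that passes cGAMP, had 1.72 and SLC46A3, a lysosomal carrier, 1.203, both with an unadjusted p under 0.05. LRRC8B (-0.23) and LRRC8E (-0.004), partners of LRRC8A, lay near 0.

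TRIM14, which protects CGAS from degradation, had a log2 fold change of 1.56 (edgeR adjusted p = 0.208), with mean levels of 41.3 CPM before and 105.3 CPM early. ADAR, the RNA-editing enzyme that keeps self RNA from being sensed, had 1.38 (edgeR adjusted p = 0.276), and DNASE1L3, a secreted DNase, 1.42 (unadjusted p under 0.05). BANF1, a DNA-binding protein that competes with CGAS, had -0.93, RNASEH2C -0.92 and G3BP1 -0.58. Among the partners of STING1, STIM1, which holds it in the endoplasmic reticulum, had 0.75 (unadjusted p under 0.05), TRIM56, a ubiquitin ligase, 0.71, RHBDF2, which aids its transport, 1.70, and the ubiquitin ligases RNF5 and TRIM32 -0.81 and -0.11. TBKBP1, an adaptor of TBK1, had 1.36 (unadjusted p under 0.05), RELA and NFKB1 0.63 and 0.69, IRF3 -0.13 and AZI2, a further adaptor, -0.28.

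**Figure D5:**
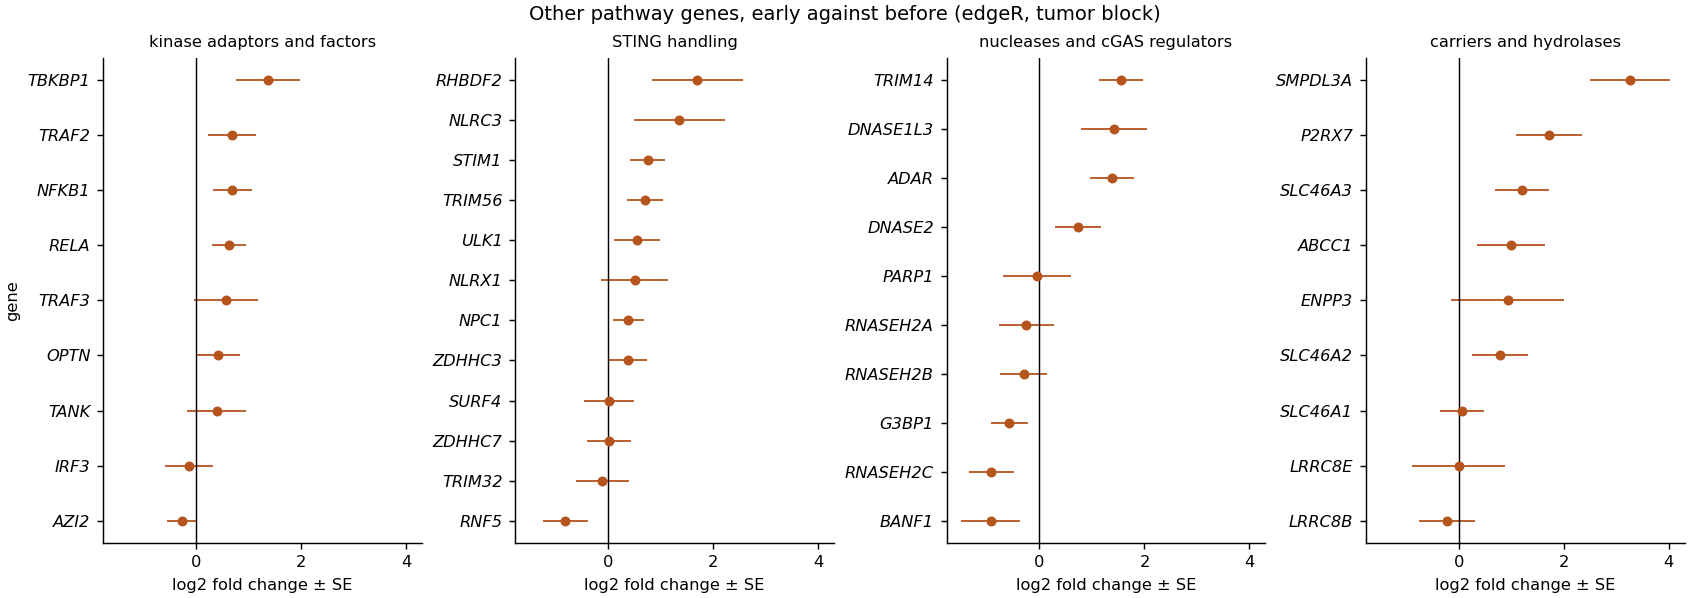
Log2 fold change early against before (x axis, edgeR with a tumor term, bars are ± SE) of the other pathway genes in 4 lists by role. SMPDL3A (3.26) lies farthest to the right, and the nucleases and regulators of CGAS lie on both sides of 0.

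Late against before, none of these listed genes had an unadjusted p under 0.05 in edgeR or was called by DESeq2, and the list medians were 0.000, 0.21, 0.51 and -0.20 in the order above. Early against late, the numbers higher and lower at that level were 2 and 0 for kinase adaptors and factors, 3 and 1 for STING1 handling, 2 and 4 for nucleases and regulators of CGAS, and 4 and 0 for carriers and hydrolases, beside 17.7% of all genes higher and 8.87% lower. DESeq2 called 2, 4, 5 and 4 genes of these lists early against late, beside 23.9% of all genes.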

How the data were processed

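RNA from 13 tumor biopsies had been made into strand-specific libraries, which the authors mapped with Strand NGS to the CanFam4.0 dog genome. The deposited values are unnormalized read counts by gene symbol. The counting rule and the annotation are not given in the sources used here. Of the symbols, 98% matched RefSeq's annotation of UU_Cfam_GSD_1.0 (canFam4), which gave the coordinates. Tumor and time point were taken from the sample labels.

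Low counts were removed by filterByExpr with a minimum count of 10, given the time groups, and the 20118 genes that passed were tested over all 13 libraries with edgeR 4.0.16 in R 4.3.3 (TMM factors, glmQLFit with robust estimation, glmQLFTest), with time group and tumor as factors. The tumor term pairs biopsies of the same mass, whose deviations from the group means had a mean correlation of 0.587 between before and late, 0.229 between before and early and 0.191 between early and late. Benjamini-Hochberg adjustment ran over all 20118 genes, with a threshold of 0.05. Within-tumor differences used log2 CPM with a prior count of 2. DESeq2 1.42.0 was run as an alternative, and other choices tried are given with the results that depend on them. The edgeR step was tested on simulated data for early against before. With the spread of these data it recovered 2 of 100 genes changed 4-fold and 27 of 100 changed 8-fold. With a coefficient of variation of 0.2 it recovered 96 and 99 of 100. Each pair of libraries differed by more than sampling noise (the smallest chi-square over its degrees of freedom was 44.5), so none was counted as a copy.

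The members and lists were chosen with earlier results of these data known. Genes named from each of the 4 lists were the up to 3 with the smallest unadjusted p in each direction early against before, and like patterns were taken as the 5 genes nearest to STING1 and the 3 nearest to CGAS and to TREX1. Transcript lengths and sequences were not used here, so levels were not compared between genes, and the planned values per length and promoter motifs were not computed. At this depth a gene shows at 3 counts or more.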

Additional observations from a re-analysis of the deposited data

Results flagged for a closer look

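Of 30 sets of libraries (10 genes in 3 time groups), 1 held a library far from the others, where chance would give about 1.5. ENPP1 in the early group was at 22.9 CPM in RV at 2 days, against 77.1 to 95.2 CPM in the 3 mammary tumors at 1 week, a gap of 0.852 of the group's range on the log2 scale. RV also had the lowest ENPP1 level before treatment (60.8 CPM), and the same library held the highest neutrophil marker sum (6595 CPM). The part of either in the ENPP1 level was not tested.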

How the results depend on the processing

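Among the refits of single genes, 304 kept their direction and side of the threshold, 20 changed direction and 6 passed only under the alternative, all 6 without a call in the edgeR fit with the tumor term. The genes called were 2 early against before with DESeq2's Wald test, and 3 early against late with it and 1 (IKBKE) without the filter on low counts, which called 1081 genes in all against 2 with it. Leaving out each tumor in turn gave 0 to 0 genes called in each comparison. The counts of genes higher in 4 of 4 tumors were 3, 0 and 2 in the 3 comparisons under every scaling, prior count and RV site tried. In the mammary tumors alone, an alternative chosen after seeing the data, 3 were higher early against before. They are the same 3 genes, so that count could not have been lower. The fit without the replicate block called no gene of the 10 in any comparison.

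Directions turned for small values, and the cause was not tested. Early against before, SLC19A1 was -0.244 without CL caudal and 1.079 without RV. Late against before, CGAS was -0.248 with the CL tumors summed, -0.142 without CL caudal and -0.472 without CL cranial, TBK1 was -0.143 without CL cranial, TREX1 was -0.283 without BM, and SLC19A1 was -0.208 without RV, and the highest values without a tumor were 0.547, 0.288, 0.804 and 0.662 for these genes in turn. In that comparison ENPP1 was -0.008 with DESeq2 size factors, -0.014 without the filter, -0.007 with DESeq2's Wald test, -0.030 with only the libraries compared, -0.259 without BM, -0.031 without CL cranial and 0.343 without RV, and LRRC8A was 0.042 with the CL tumors summed, 0.030 without RV and -0.055 without CL caudal. Early against late, SLC19A1 was -0.220 and LRRC8A 0.034 without the replicate block, SLC19A1 was -0.222 with the CL tumors summed and -0.409 to 1.287 without single tumors (lowest without CL caudal), and LRRC8C was -0.047 without RV and 0.799 without CL cranial. The median log2 fold change of all genes early against before was 0.251 in the fit reported, 0.581 without the filter and 0.013 without the block. TREX1, with a lowest count of 9, is the gene of the 10 that depth limits most.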
